A study of Mus musculus with 28 samples.

Results

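The transcripts described here are those of 32 genes for metabolic enzymes, carriers and transporters of the liver, read from arrays of mouse striatum. The list was selected on earlier values of these same arrays, in which Fabp1, Cyp2e1 and other liver genes varied widely. Of the 32 genes, 30 were measured, among 19938 genes in all. The array reports values per transcript cluster, a group of probes along a gene. Each gene was read from the cluster that carries its symbol alone and has the highest mean over all arrays. Ass1, an enzyme of the urea cycle, lay on 2 clusters that each carry several symbols. It and Sds, which breaks down serine, were not analysed here.

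The arrays, Mouse Gene 1.0 ST, held RNA of striatal punches from both sides of the brain, pooled for each mouse, with 28 mice in 4 groups. Homozygous congenic mice (n = 8, 4 of each sex) carried 2 copies of an A/J segment from 84 to 96 Mb on a C57BL/6J (B6) background and were 52 to 57 days old. B6 controls (n = 8, 4 of each sex) carried none and were 61 to 63 days old. These groups formed batch 2 and were not littermates, so genotype, age and litter cannot be told apart there. Batch 1 held heterozygous congenic mice (n = 6, 3 of each sex, 1 copy) and their B6 littermates (n = 6, 3 of each sex, none), aged 41 to 68 days. All mice were drug-naive. The study asked which striatal genes differ between carriers of the segment and B6 mice, in a region linked to methamphetamine sensitivity.

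The liver clears ammonia through the urea cycle, makes glucose, breaks down amino acids, converts cholesterol to bile acids and oxidises foreign compounds with cytochrome P450 enzymes. Hepatocytes divide this work by position: urea cycle and glucose-making enzymes are richest around the portal vein, and several P450 enzymes around the central vein. Most of these genes have little or no known role in striatum. Cyp7b1, which hydroxylates oxysterols and steroids, and Cyp27a1, which hydroxylates cholesterol, are known to be expressed in brain as well.

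Fabp1, the liver fatty acid binding protein, and Cyp2e1, a P450 that oxidises ethanol and other small molecules, served as the yardstick for all other genes. Their promoters are shown because the likeness measured below is likeness to this pair. They span 250 bases before to 50 bases after the transcription start on the plus strand of GRCm38.p6, as given by RefSeq, at chr6:71199629-71199928 for Fabp1 and chr7:140763569-140763868 for Cyp2e1. Capitals mark GTTAAT, the core of the site bound by the liver factor HNF1, and TATAAA, the TATA box, each searched on both strands.
Fabp1: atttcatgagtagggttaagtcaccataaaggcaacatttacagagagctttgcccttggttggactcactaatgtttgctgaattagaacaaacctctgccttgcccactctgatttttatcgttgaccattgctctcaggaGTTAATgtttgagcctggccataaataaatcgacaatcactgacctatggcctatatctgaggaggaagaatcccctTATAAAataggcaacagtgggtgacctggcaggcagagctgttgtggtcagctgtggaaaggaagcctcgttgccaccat
Cyp2e1: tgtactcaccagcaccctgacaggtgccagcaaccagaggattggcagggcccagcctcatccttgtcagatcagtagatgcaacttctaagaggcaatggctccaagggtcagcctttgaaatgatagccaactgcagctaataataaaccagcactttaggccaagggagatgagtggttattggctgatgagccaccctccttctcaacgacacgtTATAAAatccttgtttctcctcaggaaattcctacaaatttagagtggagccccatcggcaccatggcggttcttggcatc
Promoters of 24 of the 30 measured genes were in the table. GTTAAT was present in 4 of those 24 (Fabp1, G6pc, Pck1 and Slco1b2), against 7.1% of 32851 promoters of the same length. TATAAA was present in 10 of the 24, against 13.6%. The longer motif CAAAGTCCA, bound by HNF4, was present in 1 of the 24, Cyp8b1, against 0.475%. A match of letters is a description of the sequence and was not tested as a binding site.

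The deposited values are log2 values already adjusted between the 2 batches with ComBat by the authors, which moves each gene's level in each batch. The level of a gene was therefore compared only within a batch. Array medians lay between 7.47 and 7.54 log2, and no 2 arrays held identical values.

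Fabp1 and Cyp2e1 varied widely in batch 2 and little in batch 1. In batch 2 the Fabp1 values of homozygous mice 1 to 8 were 9.56, 8.21, 8.65, 8.46, 6.60, 7.20, 9.09 and 7.70 log2. Those of B6 controls 1 to 8 were 10.72, 9.16, 9.77, 6.80, 6.80, 6.08, 6.08 and 5.85 log2. The groups overlapped: B6 controls held both the highest and the lowest arrays, and homozygous mice lay between them. The 16 arrays spanned 4.87 log2, a 29.3-fold range. Cyp2e1 had a lowest, median and highest value of 6.93, 8.91 and 10.46 log2 in homozygous mice, against 6.77, 7.59 and 11.41 log2 in B6 controls. B6 control 1 was the highest array for both genes, and B6 control 8 the lowest.

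In batch 1 Fabp1 had a lowest, median and highest value of 6.93, 7.51 and 8.04 log2 in heterozygous mice, against 7.43, 7.65 and 7.89 log2 in B6 littermates. Cyp2e1 had 8.32, 8.48 and 8.72 log2 in heterozygous mice, against 7.91, 8.34 and 8.55 log2 in B6 littermates. The groups of batch 1 overlapped for both genes. Across the 16 arrays of batch 2 the genes had a Pearson r of 0.99 with each other, and across the 12 arrays of batch 1 an r of 0.02. These r values are descriptions without a test, since the genes were chosen for this pattern and the arrays of a batch share their processing. A level in bulk tissue cannot tell fewer cells of a type from less RNA in each cell.

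**Figure D1:**
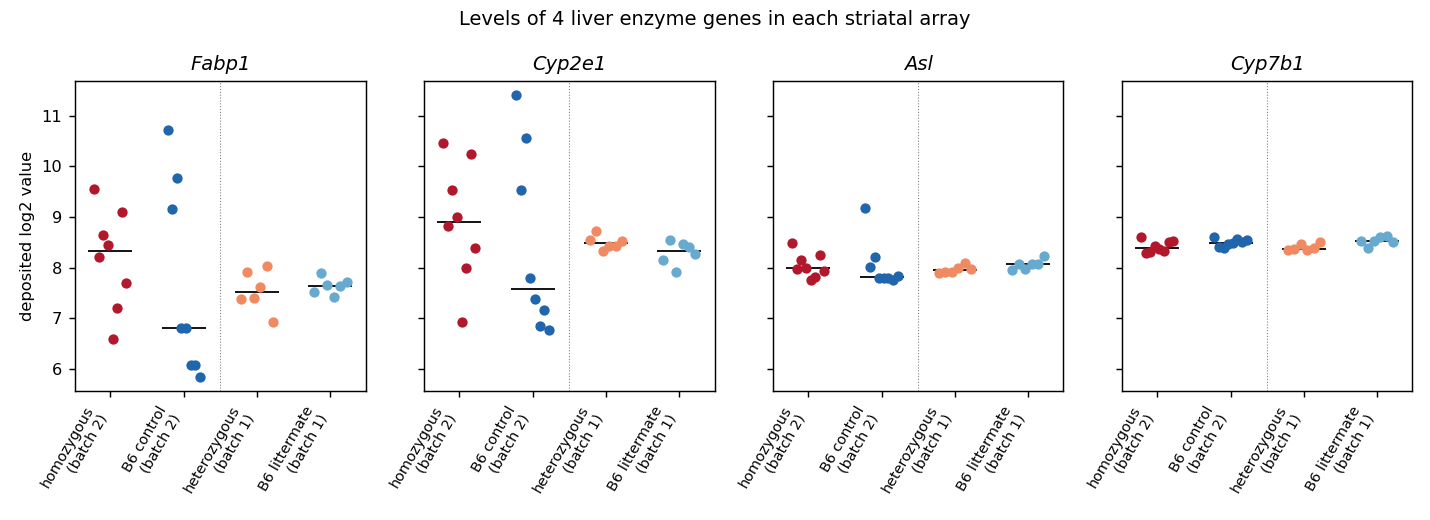
Deposited log2 values (y axis) of Fabp1, Cyp2e1, Asl and Cyp7b1 in each array of the 4 groups (x axis). Points are arrays in order of their number and black lines are group medians; Fabp1 spans 4.87 log2 in batch 2 and Cyp7b1 0.32.

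A gene was said to track the pair when its r with the mean of Fabp1 and Cyp2e1 over the 16 batch 2 arrays was at least 0.8. By that measure 27 of the other 28 genes tracked, against 2.65% of all genes besides Fabp1 and Cyp2e1. That share includes the genes of the list, and these values are what chose the list. The r of the 27 lay between 0.81 for Baat and 0.999 for Adh1, and 21 of them reached 0.9. Only Cyp7b1 did not track, with an r of 0.04. The genes nearest to the threshold from above were Baat at 0.81 and Hao1 at 0.83, and no gene of the list lay close below it.

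Leaving out B6 control 1 raised the lowest r among the 27 to 0.89, so the tracking did not rest on that array alone. Within homozygous mice alone 26 of 28 genes tracked, against a background of 3.73%, with Baat at 0.78 and Cyp7b1 at 0.50. Within B6 controls alone 27 of 28 tracked, against 7.02%. In batch 1 none of the 28 did, against 0.0552% of all genes besides Fabp1 and Cyp2e1. The r of the 28 there lay between -0.53 and 0.54 with a median of 0.06.

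The genes differed in how far they moved. Over batch 2, 18 of the 30 genes spanned more than 4 log2, 10 spanned 2 to 4, Asl spanned 1.43 and Cyp7b1 0.32. A range under 1 log2 was the rule elsewhere, at 95.3% of all genes, and Cyp7b1 was the single gene of the 30 inside it. The next gene outside it was Asl. Of the 107 genes on the arrays with a range of at least 4 log2, 18 were of this list. A range is a difference on the log2 scale and does not say which gene was more abundant.

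**Figure D2:**
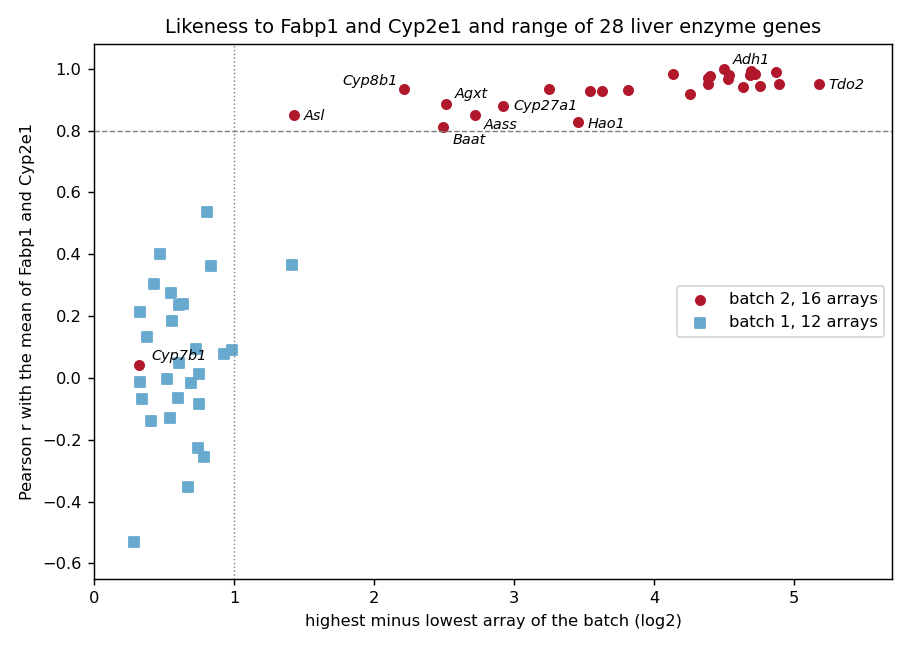
Pearson r with the mean of Fabp1 and Cyp2e1 (y axis) against the range of each of the 28 other genes in log2 (x axis), in batch 2 (circles) and batch 1 (squares). The dashed line is r = 0.8 and the dotted line a range of 1 log2; all batch 2 points but Cyp7b1 lie above the first and right of the second, and no batch 1 point lies above 0.8.

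Both other P450 enzymes of foreign compounds tracked the pair. Cyp1a2, which oxidises planar aromatic compounds and caffeine, had a lowest, median and highest value of 5.71, 6.48 and 8.18 log2 in homozygous mice, against 5.39, 5.86 and 10.14 log2 in B6 controls. The groups overlapped, and the gene spanned 4.76 log2. Cyp2f2, a P450 of the portal side of the liver lobule and of lung, spanned 4.40 log2 with an r of 0.98.

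The bile acid and sterol genes were the most uneven group. Slc10a1, the sodium-driven carrier that takes bile acids into hepatocytes, had a lowest, median and highest value of 6.38, 7.91 and 9.49 log2 in homozygous mice, against 6.09, 6.89 and 10.78 log2 in B6 controls. It had an r of 0.99. Slco1b2, an organic anion carrier of the hepatocyte membrane, spanned 4.63 log2. Cyp27a1, which starts the acidic route to bile acids, spanned 2.92 log2 with an r of 0.88. Cyp8b1, which makes the precursor of cholic acid, had a lowest, median and highest value of 6.98, 7.25 and 7.91 log2 in homozygous mice, against 6.68, 6.91 and 8.89 log2 in B6 controls. Its arrays stood in nearly the order of the pair (r = 0.93), over a narrower range of 2.21 log2. Baat, which joins bile acids to taurine or glycine, had 6.15, 6.32 and 6.60 log2 in homozygous mice, against 5.87, 6.08 and 8.36 log2 in B6 controls. Without B6 control 1 its range was 1.13 log2 in place of 2.49.

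Cyp7b1 stayed level. Its values in homozygous mice 1 to 8 were 8.60, 8.29, 8.31, 8.43, 8.37, 8.33, 8.50 and 8.52 log2, and in B6 controls 1 to 8 8.61, 8.41, 8.39, 8.47, 8.48, 8.56, 8.51 and 8.55 log2. The groups overlapped in part: 4 of the 8 homozygous mice lay within the range of the B6 controls and 4 below its lowest value. Its SD across batch 2 was 1.03 times that across batch 1, while for the 30 genes that ratio had a median of 5.50 and reached 11.9 for Tdo2. B6 control 1 was the highest array for Cyp7b1 too, at 8.61 log2 against 8.60 log2 in homozygous mouse 1.

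The 4 measured urea cycle enzymes tracked the pair. Cps1, which makes carbamoyl phosphate from ammonia, spanned 4.68 log2 and Otc, the next enzyme, 4.26 log2. Arg1, which splits arginine to release urea, spanned 3.82 log2. Asl, which cleaves argininosuccinate, had a lowest, median and highest value of 7.76, 7.99 and 8.49 log2 in homozygous mice, against 7.75, 7.82 and 9.18 log2 in B6 controls. B6 control 1 stood alone at 9.18, and without it Asl spanned 0.73 log2 while its r was 0.90. For each log2 unit of the pair Asl moved by 0.21 log2, the smallest slope among the 27, against 0.99 for Mat1a, the largest.

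The 3 gluconeogenesis genes tracked the pair. Fbp1, fructose bisphosphatase, had a lowest, median and highest value of 5.85, 7.30 and 8.99 log2 in homozygous mice, against 5.55, 6.06 and 10.27 log2 in B6 controls. The groups overlapped, and the gene spanned 4.72 log2. G6pc, which frees glucose from glucose 6-phosphate, spanned 4.38 log2, and Pck1, which commits oxaloacetate to glucose, 3.25 log2.

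All 6 amino acid breakdown genes tracked the pair. Tdo2, which opens the ring of tryptophan, had the widest range of the list, 5.18 log2. Its lowest, median and highest values were 5.54, 6.54 and 7.83 log2 in homozygous mice, against 5.11, 5.61 and 10.29 log2 in B6 controls. B6 control 1 exceeded B6 control 3, the next highest array for this gene, by 1.76 log2. Tat, Hpd and Hgd, the first steps of tyrosine breakdown, spanned 4.52, 4.53 and 4.39 log2. Hal, which removes ammonia from histidine, spanned 3.62 log2, and Aass, the first enzyme of lysine breakdown, 2.72 log2.

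The methionine and one-carbon genes tracked the pair as well. Mat1a, which makes S-adenosylmethionine in liver, had a lowest, median and highest value of 6.24, 7.73 and 9.34 log2 in homozygous mice, against 5.82, 6.34 and 10.69 log2 in B6 controls. Gnmt, which uses that methyl donor to methylate glycine, spanned 3.54 log2. Bhmt, which remethylates homocysteine, had 3 clusters: the brightest, used here, spanned 4.14 log2 with an r of 0.98, another 4.37 log2 with an r of 0.98, and the dimmest 1.18 log2 with an r of 0.74.

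Of the peroxisomal, purine and alcohol enzymes all 4 tracked the pair. Uox, urate oxidase, had a lowest, median and highest value of 5.77, 6.93 and 8.05 log2 in homozygous mice, against 5.53, 5.98 and 10.42 log2 in B6 controls. It spanned 4.89 log2. Adh1, the liver alcohol dehydrogenase, was the gene nearest to the pair and spanned 4.50 log2. Hao1, glycolate oxidase, spanned 3.46 log2, of which 1.90 lay between B6 control 1 and B6 control 3. Agxt, which turns glyoxylate into glycine, spanned 2.51 log2.

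**Figure D3:**
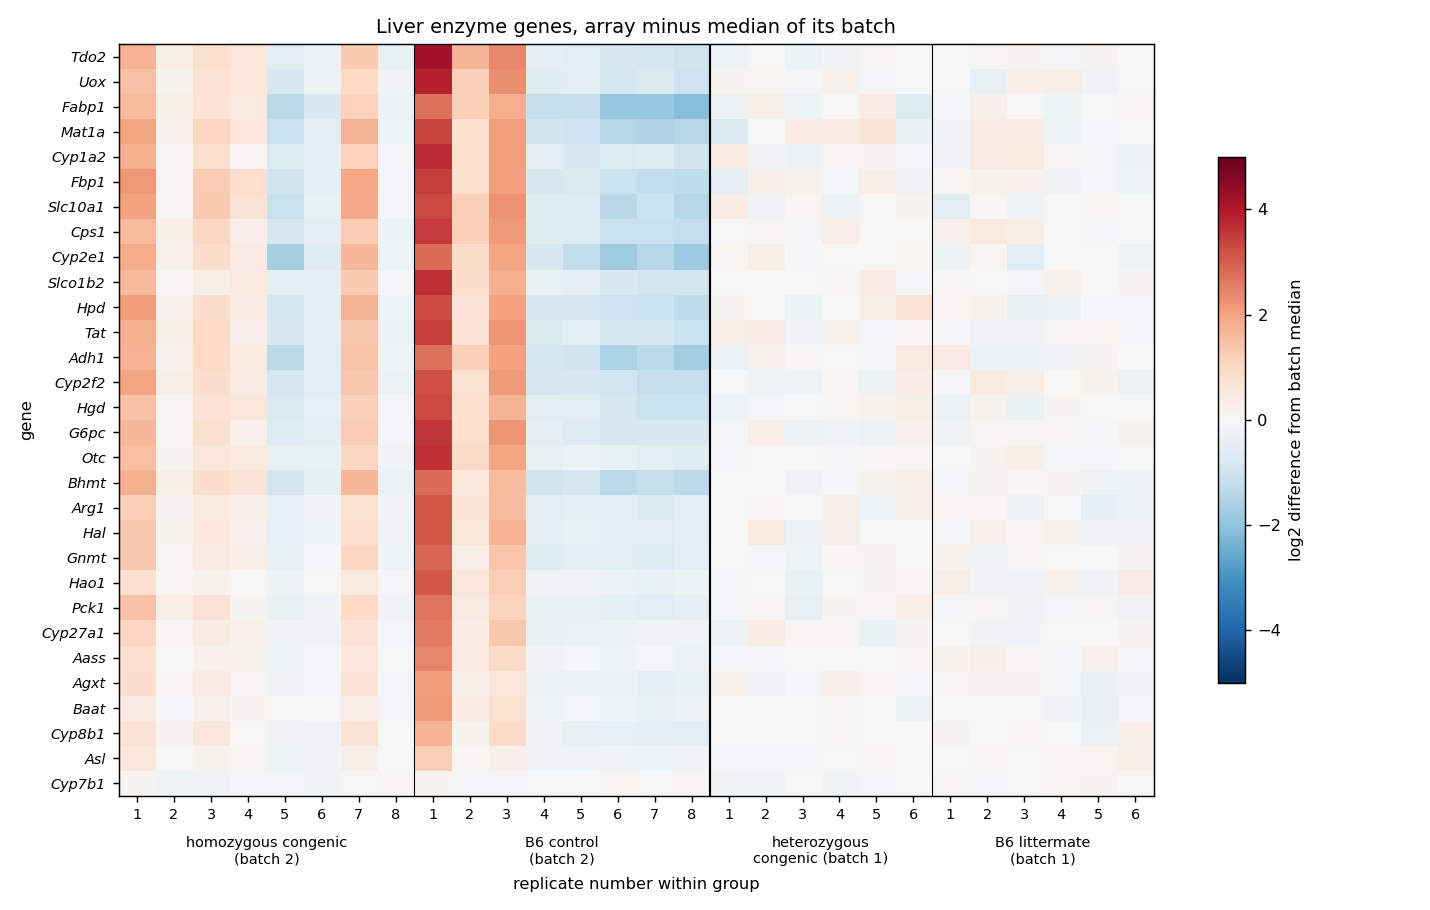
Log2 difference of each array from the median of its batch (colour) for the 30 genes (rows, widest batch 2 range at the top) in the 28 arrays (columns). B6 controls 1 and 3 and homozygous mice 1 and 7 are high across nearly all rows, B6 controls 4 to 8 and homozygous mouse 5 are low, and batch 1 and Cyp7b1 are pale.

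The arrays took nearly the same order in each gene. B6 control 1 was the highest of the 16 arrays for 30 of 30 genes, against 17.3% of all genes. It was followed by B6 control 3, homozygous mice 1 and 7 and B6 control 2, by median rank over the 29 genes other than Cyp7b1. The same 3 arrays, B6 controls 1 and 3 and homozygous mouse 1, were on top in 24 of the 29 genes. The 6 lowest arrays were B6 controls 4 to 8 and homozygous mouse 5 in 23 of the 29. The high and low ends therefore each held both genotypes. The step from B6 control 3 up to B6 control 1 had a median of 1.37 log2 over the 27 tracking genes and lay between 0.72 for Adh1 and 1.90 for Slco1b2. It was smaller in Fabp1, at 0.95 log2, and Cyp2e1, at 0.85 log2.

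The age labels ran alongside this order in B6 controls. Mean values at 63 days (4 mice, controls 1 to 4) exceeded those at 61 days (4 mice, controls 5 to 8) in 29 of 30 genes, against 46.1% of all genes, with a median difference of 2.24 log2. Every 63-day array exceeded every 61-day array in 12 of 30 genes, against 3.25% of all genes. Cyp2e1 was one of them, at 7.80 log2 or more at 63 days against 7.38 log2 or less at 61 days. In homozygous mice the 4 at 57 days had higher means than the 4 at 52 days in 29 of 30 genes, against 47.4% of all genes, with a median difference of 0.69 log2 and no gene fully separate. Cyp7b1 was the exception in both groups. The genes follow nearly 1 array order, so these counts repeat 1 split of the mice in each group. By median rank among the 16 arrays, B6 controls 1 to 3 stood at 1, 5 and 2. Control 4, at 63 days, stood at 12, as did control 5 at 61 days. Homozygous mouse 7, at 52 days, stood at 4. Age and sample number cannot be told apart here, and the split was not tested.

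The genes spread more in batch 2 than in batch 1. Their ranges had a median of 4.38 log2 in batch 2 and of 0.62 log2 in batch 1, where they lay between 0.29 and 1.41 log2. ComBat in its usual form rescales spreads as well as levels, so the ratio of the spreads before that step is not given by these values. A shift and a rescaling of a whole batch leave the r between 2 single genes within that batch as it was. The mean of Fabp1 and Cyp2e1 can change shape if these genes were rescaled by different amounts, so r with that mean can change. Whether genotype was kept as a covariate, which would treat the groups of a batch differently, is not given.

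Other genes of the same pathways also followed the pair. Of these, 56 of 85 tracked it, against 2.65% of all genes besides Fabp1 and Cyp2e1. The pathway lists were chosen with earlier results of these data known, so their counts are descriptions and no separate result. Of 20 other cytochrome P450 genes 15 tracked the pair, among them Cyp2c29 with a range of 4.92 log2 and Cyp3a11 with 4.84 log2. Cyp4x1 and Cyp2u1, with ranges of 0.45 and 0.26 log2, did not. Of 12 other bile acid genes 10 tracked, including Abcb11, the bile salt export pump, with a range of 4.40 log2, and Cyp7a1, the rate-limiting enzyme of bile acid synthesis, with 4.12 log2. The transporter Slco1a4 spanned 0.41 log2 and had an r of -0.23. Of 19 other amino acid and methionine genes 14 tracked, with the kynurenine enzyme Kmo widest at 4.47 log2.

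The remaining pathways had smaller shares, set against the same 2.65%. Among other gluconeogenesis and fructose genes 4 of 8 tracked, with the glucose carrier Slc2a2 at 3.15 log2 and the mitochondrial enzyme Pck2 at 0.33 log2. Among other peroxisome, purine and alcohol genes 6 of 13 did, and among other urea cycle genes 2 of 5. Arg2, the arginase found outside liver, had an r of -0.21 and a range of 0.93 log2. Of 8 hepatocyte transcription factors 5 tracked, with Hnf4a widest at 2.82 log2. Of all genes outside the list, the 6 nearest to the pair over batch 2 were Pzp, Kng1, Ces1c, Serpina1c, Fgb and Ahsg. Each had an r of 0.997 or 0.998 over those 16 arrays. Over batch 1 their r lay between -0.39 for Pzp and 0.28 for Fgb.

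Marker lists of liver cells varied alongside the genes. The marker lists too were chosen with earlier results of these data known, so their counts are descriptions and no separate result. The share of all genes besides Fabp1 and Cyp2e1 that tracked was 2.65%. All 13 plasma protein genes tracked the pair, and their mean was 11.20 log2 in B6 control 1, against 7.05 to 10.29 log2 in the other 15 arrays of batch 2. Of the portal markers 5 of 6 are themselves on the list described here, and the other, Hsd17b13, tracked. Of the central vein markers Cyp2e1 and Cyp1a2 are on the list, and 3 of the other 5 tracked. Glul, glutamine synthetase, which astrocytes also make, had an r of -0.44, and Oat one of 0.79. Of 7 markers of Kupffer cells and liver sinusoids 4 tracked, with a list mean of 8.19 log2 in B6 control 1, against 6.23 to 7.15 log2 in the other arrays. Clec4f, a Kupffer cell receptor, was at 8.92 log2 there, against 7.15 to 7.97 log2.

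Markers of other organs varied less, though several of their list means were highest in B6 control 1. None of 9 kidney, 6 lung and 7 pancreas markers tracked the pair, and their list means in B6 control 1 were 7.01, 6.17 and 6.98 log2. In the other 15 arrays these means lay between 6.84 and 7.11, 6.08 and 6.32, and 6.71 and 6.98 log2. The pancreas mean was the highest of the batch there, by less than the rounding shown. Of 9 intestinal markers only Fabp2 tracked, with an r of 0.91, and the list mean was 6.62 log2 in B6 control 1, against 6.08 to 6.41 log2. Of 8 choroid plexus markers Ttr and Aqp1 tracked, at 0.97 and 0.86, and the list mean was 7.72 log2, against 6.97 to 7.58 log2. Neither of 2 red blood cell markers tracked, and their mean was 7.58 log2, against 7.09 to 7.32 log2. Ttr, which liver also makes, spanned 4.73 log2 in batch 1, where the liver enzymes spanned at most 1.41 log2 and Ttr had an r of 0.18 with the pair.

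Spiny neuron and oligodendrocyte markers had their lowest list means of batch 2 in B6 control 1, and astrocyte markers did not. Over batch 2 the median r with the pair was -0.11 for spiny neuron, -0.47 for oligodendrocyte and -0.53 for astrocyte markers. The mean of 9 spiny neuron markers was 11.08 log2 there, against 11.31 to 11.71 log2 in the other 15 batch 2 arrays. The mean of 6 oligodendrocyte markers was 10.58 log2, against 11.08 to 11.44 log2. That of 7 astrocyte markers, 9.81 log2, lay within the 9.79 to 10.01 log2 of the others. The part of these cell types in the levels of the liver enzymes was not tested.

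**Figure D4:**
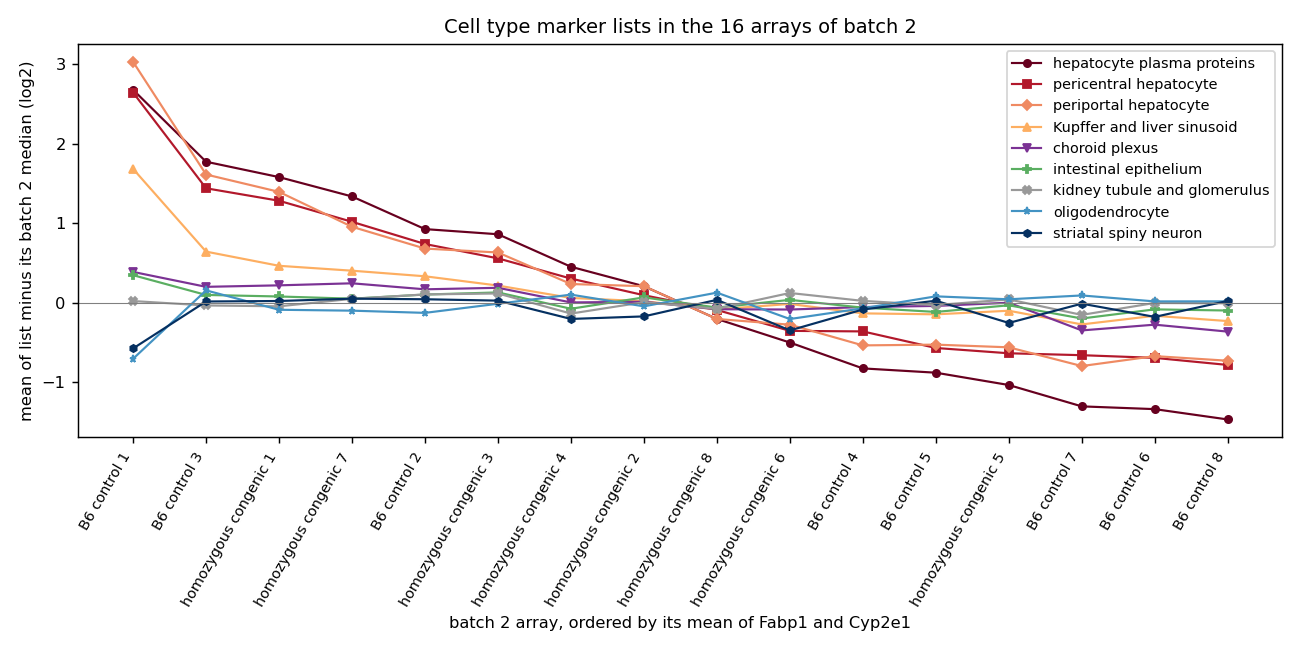
Mean of each marker list minus its median over batch 2 in log2 (y axis) in the 16 arrays of batch 2, ordered by their mean of Fabp1 and Cyp2e1 (x axis). The 3 hepatocyte lists fall from left to right, the kidney list stays near 0, and the spiny neuron and oligodendrocyte lists are lowest in B6 control 1.

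The genotype comparisons called none of these genes. In limma's moderated test with sex as a term and Benjamini-Hochberg adjustment over all 19938 genes, 0 of 30 passed an adjusted p of 0.05 between homozygous mice and B6 controls, against 0.00502% of all genes. At an unadjusted p under 0.05 the count was 0 of 30, against 6.23%. Fabp1 averaged 8.18 ± 0.98 log2 in homozygous mice and 7.66 ± 1.92 log2 in B6 controls (SD, n = 8 each), a difference of 0.52 with a 95% interval of -0.62 to 1.67 (limma adjusted p = 0.892). Cyp2e1 differed by 0.49, with an interval of -0.64 to 1.63 (limma adjusted p = 0.898). The 30 differences had a median of 0.06, against 0.02 over all genes, and 16 were above 0. For 17 of the 30 genes the interval reached beyond 1 log2 unit in one direction, so these data do not exclude a difference of that size in them. The model takes 1 spread per gene from both batches, and the SD of the 30 genes was a median of 5.50 times larger in batch 2. For the tracking genes these intervals are therefore narrower than batch 2 by itself would give, and 17 may be too low a count. With batch 2 alone the limma adjusted p of Fabp1 was 0.939.

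Single arrays moved this median. Without B6 control 1 the median difference between homozygous mice and B6 controls was 0.46 log2, and 29 of 30 genes were higher in homozygous mice. Fabp1, Pck1, Bhmt, Fbp1, Mat1a and Agxt then had an unadjusted p under 0.05, 6 of 30 against 6.23% of all genes. None of the 30 passed the adjusted threshold (smallest limma adjusted p 0.694, for Bhmt). This fit also shares its spread with batch 1, which makes the unadjusted p of the tracking genes smaller. These genes follow nearly 1 array order, so the 6 are not separate observations. Leaving out any of 8 other arrays, namely homozygous mouse 1, 3 or 7 or B6 control 4, 5, 6, 7 or 8, turned the median below 0, to between -0.07 and -0.0081 log2.

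**Figure D5:**
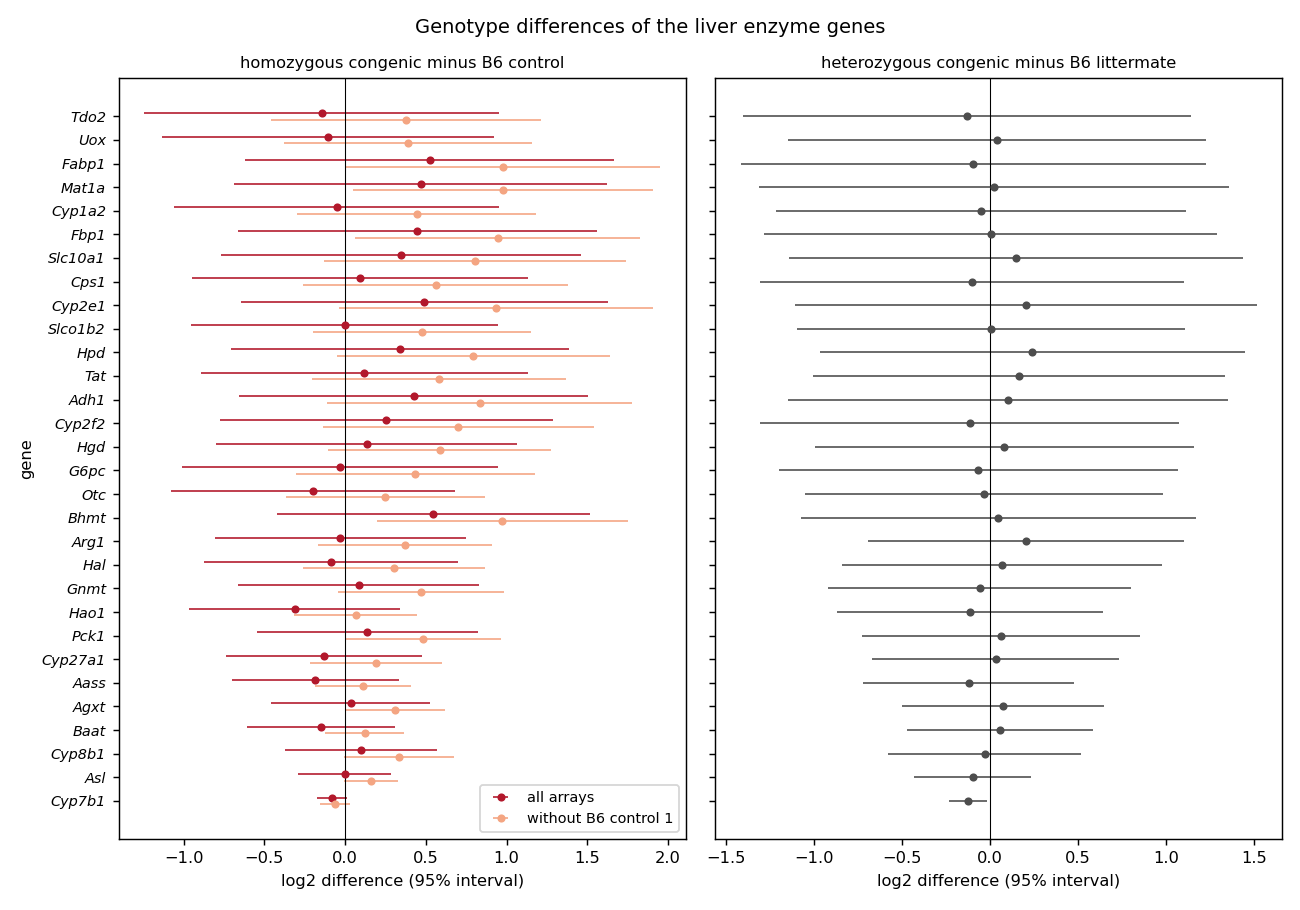
Log2 difference with its 95% interval (x axis) for each of the 30 genes (y axis), homozygous congenic minus B6 control at left, with all arrays and without B6 control 1, and heterozygous congenic minus B6 littermate at right. With all arrays, 30 of 30 intervals at left cross 0, and the points move right without B6 control 1.

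Between heterozygous mice and B6 littermates 0 of 30 genes passed, against 0.0% of all genes, and 1 of 30 had an unadjusted p under 0.05, against 3.69%. The median difference was 0.01 log2, with 17 of 30 above 0. This model shares its spread between batches: the standard error of Cyp2e1 was 0.64 log2 in it and 0.09 log2 with batch 1 alone. In that fit of 12 arrays 6 of 30 genes had an unadjusted p under 0.05, against 4.4% of all genes, and none an adjusted one (smallest limma adjusted p 0.999). Cyp2e1, Hpd, Arg1 and Tat were higher in heterozygous mice, by 0.20, 0.24, 0.20 and 0.17 log2, and Cyp7b1 and Tdo2 lower, with a difference of -0.13 log2 each. For carriers of either genotype against B6 mice, with batch and sex as terms, 0 of 30 passed, against 0.0201% of all genes, and 1 of 30 had an unadjusted p under 0.05, against 5.3%. The effects in homozygous and heterozygous mice differed in 0 of 30 genes, against 0.0% of all genes (smallest limma adjusted p 0.999). At an unadjusted p under 0.05 the count was 0 of 30, against 5.07%.

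The gene with the unadjusted p under 0.05 in both the heterozygous and the carrier comparison was Cyp7b1. It averaged 8.42 ± 0.11 log2 in homozygous mice and 8.50 ± 0.08 log2 in B6 controls (SD, n = 8 each), and 8.40 ± 0.07 log2 in heterozygous mice and 8.53 ± 0.08 log2 in B6 littermates (SD, n = 6 each). All 6 heterozygous and 5 of 8 homozygous mice lay below the B6 mean of their batch. The carrier difference was -0.10 log2, with a 95% interval of -0.17 to -0.03, and did not pass (limma adjusted p = 0.839). Of 85 other pathway genes 0 passed in any of these 3 comparisons, with a median of -0.05 log2 for homozygous mice against B6 controls.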

How the data were processed

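Total RNA of pooled left and right striatal punches from 28 mice was measured on Mouse Gene 1.0 ST arrays. The deposited log2 values are RMA summaries by the authors. The submitters' processing notes name Affymetrix Expression Console and no versions. Probes over coding SNPs from 84 to 96 Mb of Build 37 were masked and batches adjusted with ComBat, per the deposited notes. Whether ComBat kept genotype as a covariate is not given in the sources used here. The number of arrays limits the precision. In the fits of all arrays, p-values rest on the spread between arrays within groups, taken over both batches. Each mouse had its own array, so this spread holds differences between mice and in sample handling together.

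Values were used as deposited. Of 35556 clusters 21789 have 1 symbol in the platform annotation, 1621 several and 12146 none, and the brightest single-symbol cluster stood for each of 19938 genes. Tests were 2-sided limma fits (version 3.58.1 under R 4.3.3; lmFit, then eBayes) of 4 group means and sex, or of genotype, batch and sex, tried on simulated data. Likeness is Pearson's r with the mean of Fabp1 and Cyp2e1. Named were the members, the widest and narrowest genes of each pathway list, and the 6 nearest other genes. Clec4f, Oat and the tracking members of other marker lists were named after their values were seen. The members, lists and tests were chosen with earlier results of these data known. Alternatives changed arrays, model terms, weights, normalization, cluster choice and thresholds. Promoters are RefSeq's, on GRCm38.p6.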

Additional observations from a re-analysis of the deposited data

Results flagged for a closer look

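In each gene and group, an array was singled out when its gap to the nearest other array was large against the range of its group, by Dixon's 95% critical value. Of 120 groups 7 held such an array, and chance gives about 1 in 20.

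B6 control 1 was the array in 5 of the 7. It stood at 9.18 log2 for Asl against 8.20 log2 in the next B6 control, at 8.54 log2 for Hao1 against 6.64 log2, and at 8.54 log2 for Agxt against 7.05 log2. For Baat it stood at 8.36 log2 against 7.00 log2, and for Aass at 9.65 log2 against 8.15 log2.

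The other two arrays were of heterozygous mice. Baat was 6.18 log2 in heterozygous congenic 6 against 6.43 log2 in the next lowest, and Slco1b2 was 7.27 log2 in heterozygous congenic 5 against 6.95 log2 in the next highest.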

How the results depend on the processing

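No setting called any of the 30 genes in any genotype comparison. Leaving out 1 array at a time gave a median difference of -0.07 to 0.46 log2 for homozygous mice against B6 controls, -0.03 to 0.05 log2 for heterozygous mice against littermates and -0.05 to 0.25 log2 for carriers. Array weights moved the first of these to 0.48 log2, with 29 of 30 genes higher in homozygous mice. With those weights 9 of 30 had an unadjusted limma p under 0.05, against 1743 of 19938 genes (smallest limma adjusted p 0.375). For carriers the weighted median was 0.32 log2, and 4 of 30 had an unadjusted limma p under 0.05, against 1518 of 19938 genes. For Fabp1 the heterozygous difference ran from -0.20 log2 without heterozygous congenic 5 to 0.037 log2 without heterozygous congenic 6, which turned its sign, and the carrier difference to -0.10 log2 in batch 1 alone. With 1 array left out, 26 or 27 genes tracked and 1 to 2 stayed within 1 log2. In batch 1 alone 0 tracked. By 2 settings chosen after seeing the data, 27 tracked on the linear scale and 26 without the 5 arrays highest in Fabp1 and Cyp2e1. The narrow count was 2 without B6 control 1 (Asl joined Cyp7b1), 4 within homozygous mice alone and 2 at a threshold of 1.5 log2. The causes were not tested.

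Over all genes, calls for homozygous mice numbered 1, against 4 with batch 2 alone, 3 with array weights and 2 with age as a covariate. Those for carriers numbered 4, against 7 without heterozygous congenic 3, 6 with array weights and 0 in batch 1 alone. With the replicate number as a block, 0 members were called, medians stayed at 0.06, 0.01 and 0.03 log2, and genes called were 3, 0 and 1. Deviations of same-numbered mice correlated between -0.52 and 0.69 in batch 2, with 1 of 8 best with its own number. In batch 1 they correlated between -0.07 and 0.17, with 2 of 6. Correlations of single arrays can miss a pairing, so whether shared numbers pair the mice cannot be decided from them.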

Other observations

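Genes that ran against the pair were fewer than those that ran with it. Over the 16 arrays of batch 2, 195 of 19936 other genes had an r of at most -0.8 with the mean of Fabp1 and Cyp2e1, and 529 one of at least 0.8. None of the 195 was a liver enzyme of the list, but the list was chosen on these same values, so this is no separate result.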
